A study of Glycine soja and Glycine max with 13 samples.

Results

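The 150 genes described here had the most even read levels over 13 soybean lines among the genes measured in developing seeds. They were chosen from the deposited counts in 3 steps. Counts were scaled to 1 M per line (CPM), genes with a mean of at least 20 CPM were kept, and the kept genes were ordered by the coefficient of variation (CV, the SD over the 13 lines divided by the mean). The level minimum left 8636 of 43517 features, and the 150 with the lowest CV, or 1.74% of the 8636, form the list. The 6 cultivated lines, Glycine max df12, df14, df17, df3, df36 and df43, and the 7 wild lines, Glycine soja ys1, ys16, ys17, ys23, ys26, ys29 and ys34, were grown in fields without a named treatment, and whole seeds were taken 13 days after flowering. Each line gave 1 stranded mRNA library, so the spread within a group is that between single libraries of different lines. Differences between lines cannot be told apart from those between plants or libraries. Neither the number of plants nor of seeds per library is given in the labels. The title of the series asks which genes relate to seed weight, and these 150 genes are the opposite case, the ones whose share of the reads moved least.

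Genes of this kind are often called housekeeping genes. They include the genes for parts of the cell that every living cell keeps running, such as protein turnover, RNA processing and membrane traffic, and they are the usual source of reference genes, against which the level of another gene is expressed in RT-qPCR (PCR on reverse-transcribed RNA). A reference gene is useful when its level stays the same across the tissues, stages and genotypes compared. A developing soybean seed tests this hard, because during seed filling the embryo turns a large share of its mRNA over to storage proteins. A CPM value is a share of all reads, so a gene can be even in CPM only relative to that changing total, and in whole seeds fewer cells of a type and less RNA per cell cannot be told apart.

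The table of counts pairs no identifier with a name, and 0 of its identifiers matched the reference table, so the products of the 150 genes are not given here. They are called by their soybean identifiers, in which the number before the letter G is the chromosome. All 150 lie on the 20 numbered chromosomes, with 13 on chromosome 8, 12 on chromosome 15 and 3 on chromosome 16 as the extremes. As a share of the genes of at least 20 mean CPM, this was 2.0% on chromosome 8, 3.04% on chromosome 15 and 1.06% on chromosome 16. Only 1 pair, Glyma.09G264700 and Glyma.09G264800, stood next to each other in the order of identifiers in the table. Members that shared their reads would show like counts in every line. The closest pair, Glyma.08G176400 and Glyma.15G065800, still differed by up to 9.62% in at least 1 line, so no pair of members had near-identical counts. The sources used here do not say how reads that match several genes were counted, so the level of any member with a close copy in the genome is uncertain.

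Libraries held 12.7 M to 26.0 M counts (median 16.6 M), and the lowest count of any of the 150 genes in any line was 221 and the highest 5256. Some libraries stood apart before any gene was chosen. The 8 most abundant features took 39.2% of all counts in ys34 and 15.8% in df36, the highest and lowest of the 13 lines. The median gene of at least 20 mean CPM stood at 0.830 times its own mean in ys34 and at 1.10 times its mean in ys16. Storage protein transcripts were used to check the tissue label, with 4 identifiers recalled from the soybean literature as glycinin and β-conglycinin genes, a link that no table here could check. Their summed level was lowest in ys34 (18.7 CPM) and highest in ys1 (31694 CPM, or 1698 times as much), with a median of 2420 CPM. They were detected in every line, although the labels give all lines the same sampling time.

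Against that range, the summed level of the 150 genes ran from 5875 CPM in ys34 to 7136 CPM in ys16, a 1.21-fold range. It averaged 6633 ± 250 CPM in cultivated lines (SD, n = 6) and 6555 ± 373 CPM in wild lines (SD, n = 7). The line with the lowest storage level, ys34, was also the line with the lowest sum of the 150 genes. The lines next lowest in storage level had sums on both sides of the median. These were df14 (storage 88.0 CPM, sum 6951 CPM), df36 (341 and 6429 CPM) and ys16 (343 and 7136 CPM). The line with the highest storage level, ys1, had a sum of 6672 CPM, close to the 6550 CPM that was the median of all lines. Evenness is what chose these genes, so the narrow range is a description of the list and not a result about it.

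**Figure D1:**
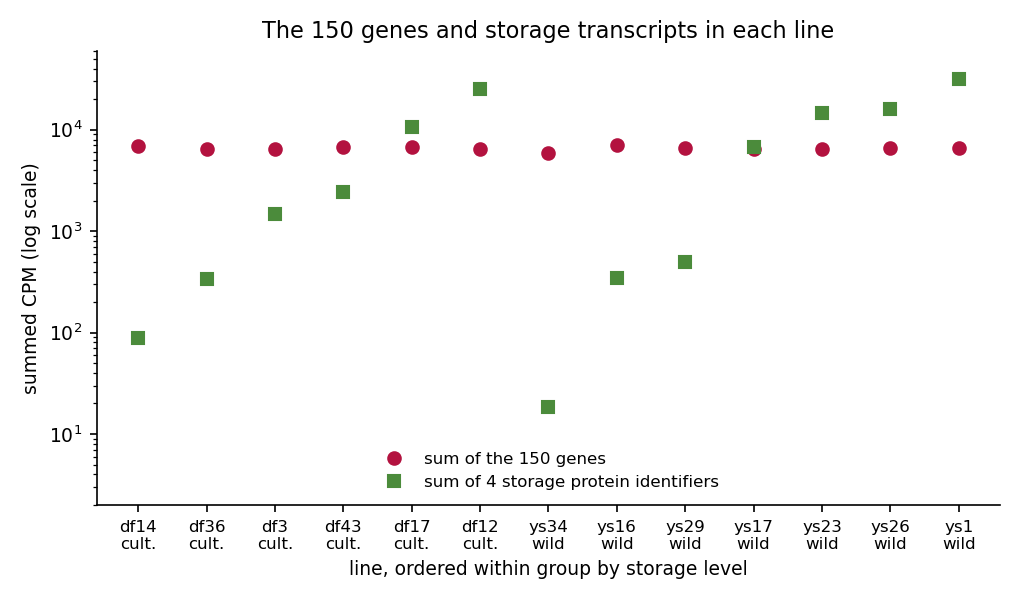
Summed CPM (log scale) of the 150 genes (circles) and of 4 storage protein identifiers (squares) in each of 6 cultivated and 7 wild lines, ordered within each group by the storage level. The sum of the 150 genes, which were chosen for evenness in these lines, stays between 5875 and 7136 CPM. The sum of the 4 storage identifiers, recalled from the literature and unchecked, ranges from 18.7 to 31694 CPM.

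The most even gene of all in unscaled CPM was Glyma.10G292700. Its level was 30.2 CPM in df12, 31.7 in df14, 30.6 in df17, 32.8 in df3, 28.7 in df36 and 26.9 in df43. In the wild lines it was 28.1 CPM in ys1, 31.5 in ys16, 33.5 in ys17, 31.5 in ys23, 30.1 in ys26, 31.3 in ys29 and 30.2 in ys34. The cultivated and wild values covered each other, and the highest line was 1.25 times the lowest. Over all lines it averaged 30.5 ± 1.84 CPM (SD, n = 13), a CV of 6.04%. Counting alone, at the depth of these libraries, gives a gene of this level a CV of 4.39%, so 52.8% of its variance was of the size expected from counting. It was even on both sides of domestication, with a CV of 7.02% among the 6 cultivated and 5.39% among the 7 wild lines.

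The next 9 genes had CVs from 7.26% to 8.50%. Glyma.04G036200 (43.5 ± 3.16 CPM, SD, n = 13) ranged from 39.9 CPM to 47.6 CPM among cultivated lines, with a median of 43.9, and from 39.2 to 49.9 CPM among wild lines, with a median of 43.1. Its groups lay on top of each other. Glyma.17G118600 (49.1 ± 3.60 CPM) behaved differently, at 47.9 to 53.8 CPM with a median of 51.9 in cultivated lines and 42.8 to 51.8 CPM with a median of 46.3 in wild lines. Within the cultivated lines its CV was 4.01%, and part of its spread over all lines was the difference between the group means of 51.7 and 46.9 CPM.

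Glyma.06G217000 (24.2 ± 1.88 CPM), Glyma.10G108600 (32.1 ± 2.65 CPM) and Glyma.14G171600 (29.2 ± 2.48 CPM) all had their lowest value in ys34, at 19.9, 28.0 and 24.3 CPM. Glyma.17G053500 (46.9 ± 3.73 CPM) and Glyma.17G000500 (39.0 ± 3.18 CPM) had their lowest value in df36 and their highest in ys16. For Glyma.17G053500 these were 42.4 and 54.7 CPM, and for Glyma.17G000500 they were 31.9 and 43.7 CPM. Glyma.19G122600 (50.1 ± 4.09 CPM), the most even gene between 50 and 100 mean CPM, was steadier in cultivated lines, at 47.3 to 53.5 CPM, than in wild lines, where ys16 held 58.5 and ys17 57.8 CPM beside 44.8 CPM in ys23. Glyma.14G046900 (34.7 ± 2.95 CPM) was the reverse, at 30.0 to 40.4 CPM in cultivated and 32.4 to 37.7 CPM in wild lines. For each of these 10 genes the highest line was 1.25 to 1.37 times the lowest, and the cultivated and wild ranges overlapped.

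Over the whole list the CV ran from 6.04% to 11.9% with a median of 10.9%, where the median of all 8636 genes was 27.0%. The highest line was 1.25 to 1.73 times the lowest, and this ratio was under 1.5 for 114 of the 150 genes and for 168 (1.95%) of the 8636. The edge of the list was not a step. The last 3 genes inside were Glyma.11G082200, Glyma.11G199900 and Glyma.15G050200, with CVs of 11.85%, 11.85% and 11.86%. The first 3 outside were Glyma.19G197500, Glyma.04G080400 and Glyma.02G044700, with 11.87%, 11.87% and 11.88%. Within 0.5 percentage points of the last member lay 39 members, itself included, and 52 genes that were not members.

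Genes near the edge owed their CV to different lines. Glyma.11G082200 stood at 16.9 CPM in df36 and at 22.8 to 29.1 CPM in the other 12 lines. Glyma.11G199900 was spread more evenly, from 44.6 CPM in df43 to 67.9 CPM in df17. Just outside, Glyma.02G044700 was highest in df17 at 39.4 CPM, and Glyma.19G197500 was low in df3 (23.0 CPM) and ys34 (22.5 CPM) and between 28.0 and 33.1 CPM in the other lines.

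**Figure D2:**
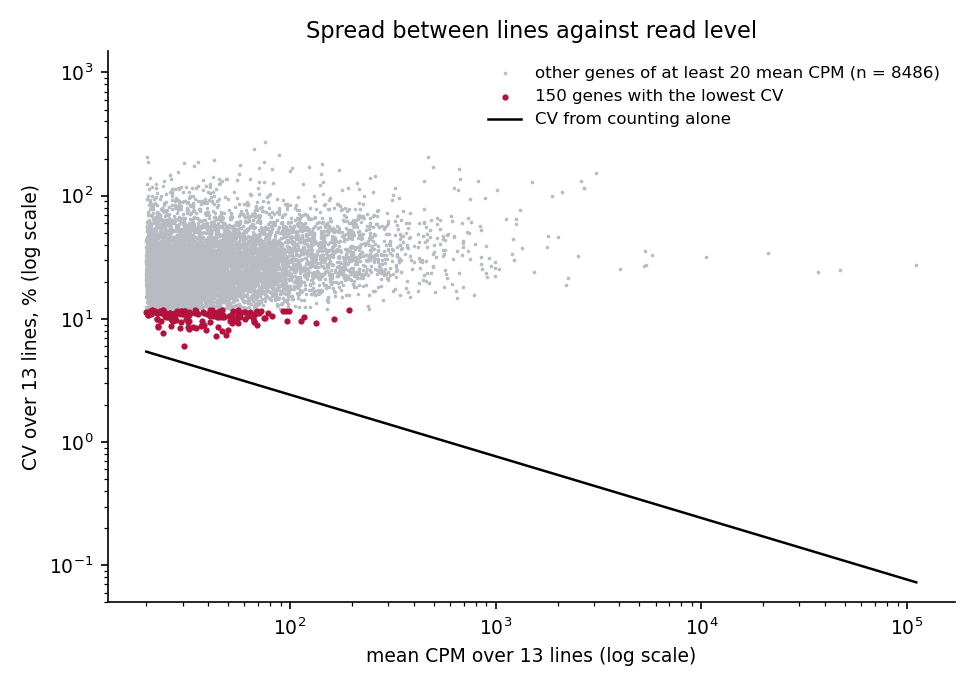
CV over 13 lines (percent, log scale) against mean CPM (log scale) for the 150 genes with the lowest CV (red) and the 8486 other genes of at least 20 mean CPM (grey); the black line is the CV that counting alone gives at these depths. The red points form the lower edge of the cloud between 20.01 and 193 CPM, above the counting line.

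The list was made of genes of moderate read level. CPM is not corrected for gene length, so it compares numbers of reads, and with them precision, but not numbers of transcripts between genes. Mean levels of the 150 genes ran from 20.01 to 193 CPM with a median of 35.3 CPM, beside a median of 35.5 CPM for all 8636. Of 5778 genes between 20 and 50 mean CPM 106 were on the list (1.83%), of 1715 between 50 and 100 there were 39 (2.27%), of 709 between 100 and 200 there were 5 (0.705%), and of 434 at 200 or above there were 0. Counting noise runs the other way, with a median CV from counting of 4.57% in the lowest of these bands and 1.41% in the highest. The median observed CV was 25.8% in the lowest band and 35.5% in the highest. The most even gene at 200 or above, Glyma.10G255500, averaged 242 ± 29.3 CPM (SD, n = 13) with a CV of 12.1% and missed the list.

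The 5 members with the most reads were Glyma.15G050200 (193 ± 22.8 CPM, SD, n = 13), Glyma.05G225700 (164 ± 16.4 CPM), Glyma.08G224500 (134 ± 12.5 CPM), Glyma.17G047600 (117 ± 12.2 CPM) and Glyma.08G171500 (113 ± 10.9 CPM). Counting made up 2.17% to 5.64% of their variance, so nearly all of their spread was beyond counting error. Glyma.08G224500 was the most even of them, with a CV of 9.33%, at 113 to 153 CPM in cultivated lines (median 142) and 111 to 146 CPM in wild lines (median 130). Glyma.05G225700 was even in cultivated lines, at 160 to 179 CPM, and its wild lines ran from 120 CPM in ys34 to 186 CPM in ys26. Glyma.15G050200 likewise had a CV of 6.32% among cultivated and 15.6% among wild lines, from 159 CPM in ys17 to 225 CPM in ys26.

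Counting made up a median of 15.5% of the variance of the 150 genes, beside 2.08% over all 8636, and at least 25% for 13 members. After its subtraction the CV of the members ran from 4.15% to 11.7% with a median of 10.03%. A list chosen by the CV after subtraction shared 138 genes with the list used here. Reads carry no molecular identifiers, so these figures cover counting error only.

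The extremes of the members were not spread evenly over the lines. The lowest value of a member fell in ys34 for 51 of the 150 genes (34.0%), in df36 for 27 (18%) and in df12 for 17 (11.3%). Over all 8636 genes the same shares were 24.6%, 22.1% and 6.51%. The highest value fell in ys16 for 39 members (26.0%) and in df43 for 27 (18%), beside 15.5% and 11.3% of all genes, and in ys34 for 0. Line df36 differed between the list and the rest in the other direction, as it held the highest value of 8 members (5.33%) and of 20.2% of all genes. The mean Pearson correlation of log2(CPM + 1) between pairs of members over the 13 lines was 0.19, beside 0.070 for all pairs of the 8636 genes. With TMM factors it was 0.085 between members and 0.015 between all genes. These values are a description over libraries that all pairs share.

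As a set, the 150 genes stood at a median of 0.884 times their own mean in ys34 and at 1.08 times in ys16, with the other 11 lines between 0.965 and 1.06. The ratio of the highest to the lowest line was 1.22, beside 1.32 for all 8636 genes in the same unscaled CPM. ys34 and ys16 were also the lines where the median of all genes was lowest and highest, and ys34 the line in which the 8 most abundant features took the largest share; the part of this in the levels of the list was not tested. The 3 common scaling factors were then applied to the same 150 genes. With TMM factors (trimmed mean of M-values, from edgeR) the set level in ys34 was 0.996, and the extremes were 0.941 in ys16 and 1.08 in df36. The ratio of the highest to the lowest line was 1.15 with TMM, 1.17 with RLE and 1.14 with upper-quartile factors. A factor moves every gene of a library alike, so these shifts are those of the factors and not particular to the list.

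**Figure D3:**
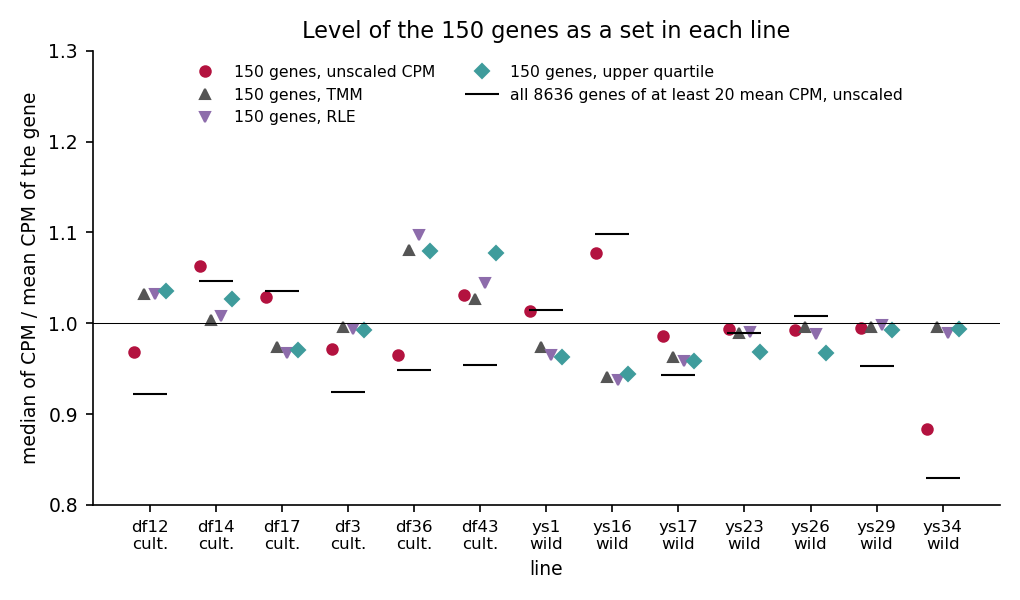
Median over genes of CPM divided by the mean CPM of the gene, in each of 13 lines, for the 150 genes in unscaled CPM and with TMM, RLE and upper-quartile factors, and for all 8636 genes of at least 20 mean CPM in unscaled CPM (dashes). The 150 genes are lowest in ys34 (0.884) and highest in ys16 (1.08) without scaling, and highest in df36 (1.08 to 1.10) with each of the 3 factors.

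Membership of the list depended on the scaling. Applying the same rule to TMM-scaled values kept 85 of the 150 genes, and RLE and upper-quartile factors kept 81 each. In all, 75 genes were on the list in unscaled CPM and with all 3 factors. Of the 10 most even genes 9 were among these 75, the exception being Glyma.14G046900, whose CV was 8.50% without scaling and 10.4% with TMM. Glyma.17G053500 was the most even with TMM, at a CV of 4.68%. Glyma.10G292700, the most even without scaling, had a CV of 7.99% with TMM. Among the 5 members with the most reads, Glyma.05G225700 (11.1% with TMM) and Glyma.17G047600 (13.4%) left the list with every one of the 3 factors, and Glyma.08G224500 stayed on it with all 3.

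Ratios between genes of one library need no scaling. Among the 45 pairs of the 10 most even genes, the SD of the log2 ratio over the 13 lines ran from 0.095 to 0.21 with a median of 0.14. The tightest pair was Glyma.17G118600 and Glyma.10G108600 (0.095), whose ratio in the highest line was 1.28 times that in the lowest. The loosest was Glyma.17G000500 and Glyma.14G046900 (0.21), with a factor of 1.61 between the extreme lines. The 10 genes were chosen for evenness in these same lines, so the small SDs describe them and do not test them.

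For comparison, 11 identifiers were used that were recalled from the literature on reference genes for soybean RT-qPCR, without a publication being consulted. No table here pairs them with names, so this link was not checked, and no name is given. None of the 11 was on the list. Their CVs ran from 15.1% to 36.6% with a median of 23.9%, beside a median of 27.0% over all 8636 genes. That comparison is not matched for level, as their mean levels ran from 19.97 to 1544 CPM with a median of 137 CPM. The median CV of all genes was 25.8% between 20 and 50 mean CPM, 33.3% between 100 and 200 and 35.5% at 200 or above. One of the 11, Glyma.20G130700, averaged 19.97 CPM and fell under the level minimum, with a CV of 17.3%. The other 10 ranked from place 658 to place 6448 by CV. The highest line was 1.62 to 3.81 times the lowest.

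The most even of the 11 was Glyma.12G020500 (85.9 ± 13.0 CPM, SD, n = 13), at 65.7 to 107 CPM in cultivated and 69.9 to 101 CPM in wild lines. Glyma.18G290800 (137 ± 23.6 CPM) was at 118 to 198 CPM in cultivated and 103 to 155 CPM in wild lines, with df17 the highest line. The least even was Glyma.03G124400 (268 ± 98.0 CPM), which ranged within the wild lines alone from 128 CPM in ys34 to 481 CPM in ys23. Among the 55 pairs of these 11 identifiers the SD of the log2 ratio ran from 0.20 to 0.84 with a median of 0.47.

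**Figure D4:**
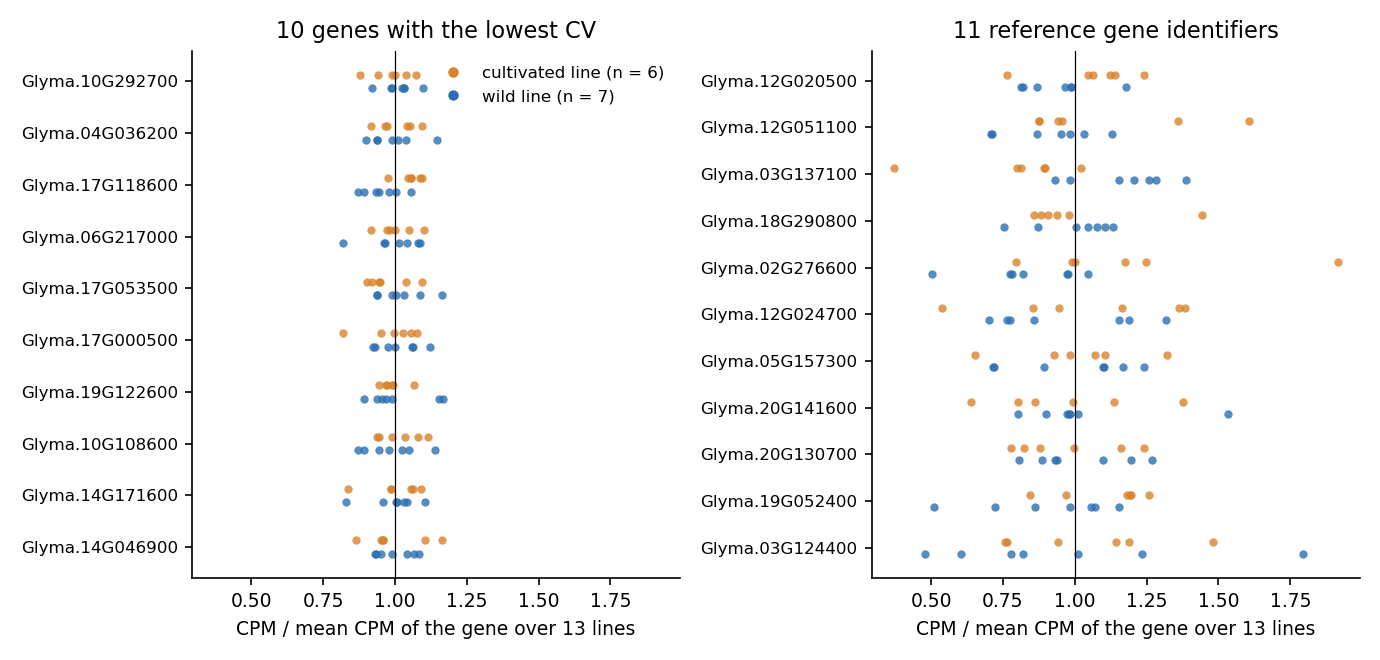
CPM divided by the mean CPM of the gene in each cultivated (orange, n = 6) and wild (blue, n = 7) line, for the 10 genes with the lowest CV (left) and 11 identifiers recalled, unchecked, from the literature on RT-qPCR reference genes (right). The highest line is 1.25 to 1.37 times the lowest on the left and 1.62 to 3.81 times on the right; the left set was chosen for evenness in these lines.

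Cultivated and wild seeds were compared over the whole table with edgeR's quasi-likelihood test on TMM-scaled counts. All 150 genes were among the 31420 tested and 0 were called at an adjusted p under 0.05, where 0.0446% of all tested genes were called. Before adjustment, 2 of the 150 and 18.9% of all tested genes had a p under 0.05. DESeq2 called 1 member, Glyma.01G176800, beside 3.61% of the genes for which it gave an adjusted p, and limma voom called 0, beside 0.0286%. A low CV over all 13 lines leaves little room for a difference between the groups, so these counts follow from the choice of the genes and nothing is read from them.

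Fitted log2 fold changes of cultivated over wild seeds ran from -0.19 to 0.27 over the 150 genes, with a median of 0.051 and a median absolute size of 0.074. Over all 31420 tested genes the median was -0.015 and the median absolute size 0.28. Over the 8636 genes of at least 20 mean CPM these were 0.037 and 0.27, so the median of the members was close to that of genes above the same level minimum. The fitted value was above 0 for 102 members and below 0 for 48. This split depended on the scaling, as it was 82 and 68 with no factors, 113 and 37 with RLE and 120 and 30 with upper-quartile factors, while the median over all tested genes moved from -0.054 with no factors to 0.016 with upper-quartile factors. A size of 0.2 or more, in either direction, was fitted for 5 of the 150.

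The largest member difference was that of Glyma.01G176800, at 59.0 to 71.8 CPM in cultivated lines (median 63.8) and 48.8 to 61.9 CPM in wild lines (median 55.5). Its log2 fold change was 0.27 (SE 0.11), or 1.21-fold. The ranges overlapped, as ys16 with 61.9 CPM lay above 2 cultivated lines with 59.0 and 59.4 CPM. Glyma.15G171800 followed with a log2 fold change of 0.26 (SE 0.12), at 101 to 116 CPM in cultivated and 80.6 to 105 CPM in wild lines. In the other direction stood Glyma.19G046100 (log2 fold change -0.19, SE 0.11) and Glyma.15G148800 (-0.18, SE 0.11). Glyma.15G148800 was at 32.6 CPM in df36, at 42.0 to 45.3 CPM in the other cultivated lines and at 44.2 to 55.1 CPM in wild lines.

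Glyma.19G046100 was the 1 member whose groups did not overlap in unscaled CPM, where this held for 0.892% of the 8636 genes and 0.856% of all tested genes. It stood at 42.5 CPM in df12, 46.5 in df14, 44.6 in df17, 46.5 in df3, 39.5 in df36 and 39.2 in df43, a mean of 43.1 ± 3.29 CPM (SD, n = 6). Its wild values were 50.5 CPM in ys1, 55.5 in ys16, 55.5 in ys17, 47.1 in ys23, 48.2 in ys26, 49.6 in ys29 and 46.7 in ys34, a mean of 50.4 ± 3.69 CPM (SD, n = 7). The groups were parted narrowly, by 46.7 CPM in the lowest wild line against 46.5 CPM in the highest cultivated line. The number of members without overlap was 2 with TMM, 3 with RLE and 2 with upper-quartile factors. The share of all genes without overlap is not given for these factors, so nothing about the members is read from these counts.

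The members were about as even among cultivated as among wild lines. The 150 genes had a median CV of 9.91% in the cultivated and 10.7% in the wild lines, and 80 of them had the lower CV in the cultivated lines. Over all 8636 genes the medians were 27.6% and 20.3%, and 3050 (35.3%) had the lower CV in the cultivated lines. The difference between the list and all genes was not tested, because the list was chosen by these values.

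Whether evenness carries over to lines that did not choose the genes was looked at by applying the rule to 1 group and reading the CV in the other. The 150 genes with the lowest CV in the 6 cultivated lines had a median CV of 7.84% there and of 15.0% in the 7 wild lines, where all 8353 genes eligible by the cultivated lines had a median of 20.6%. Of these 150 genes, 112 (74.7%) were below that median, and 74 (49.3%) were within the lowest 25%. The 150 genes chosen in the wild lines had a median CV of 6.68% there and of 23.6% in the cultivated lines, beside 27.6% for all 8785 eligible genes, with 94 (62.7%) below the median and 48 (32.0%) within the lowest 25%. In single genes the CV in the other group ran from 5.39% to 56.1% for the first list and from 4.01% to 68.2% for the second. In both directions the median CV of the list in the other lines was below that of all eligible genes and above its own value in the lines that chose it.

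The 2 lists from single groups had 4 genes in common, 2.67% of each, where 1.36% of the genes eligible by cultivated lines and 1.67% of those eligible by wild lines were on the list of the other group. These 4 genes were Glyma.10G292700, Glyma.17G118600, Glyma.19G046100 and Glyma.08G343200. The first 3 were also members of the list over all lines. Glyma.08G343200 was not, because it was even within each group at different levels, 24.6 ± 2.13 CPM in cultivated (SD, n = 6) and 33.1 ± 2.41 CPM in wild lines (SD, n = 7), with no overlap between 20.6 to 26.4 CPM and 30.8 to 37.4 CPM. Its log2 fold change of cultivated over wild was -0.39 (SE 0.11), and edgeR did not call it (Benjamini-Hochberg adjusted p = 0.124 over all tested genes). This gene was named after its values were seen. The list over all lines shared 59 genes with the list from the cultivated lines and 20 with the list from the wild lines.

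**Figure D5:**
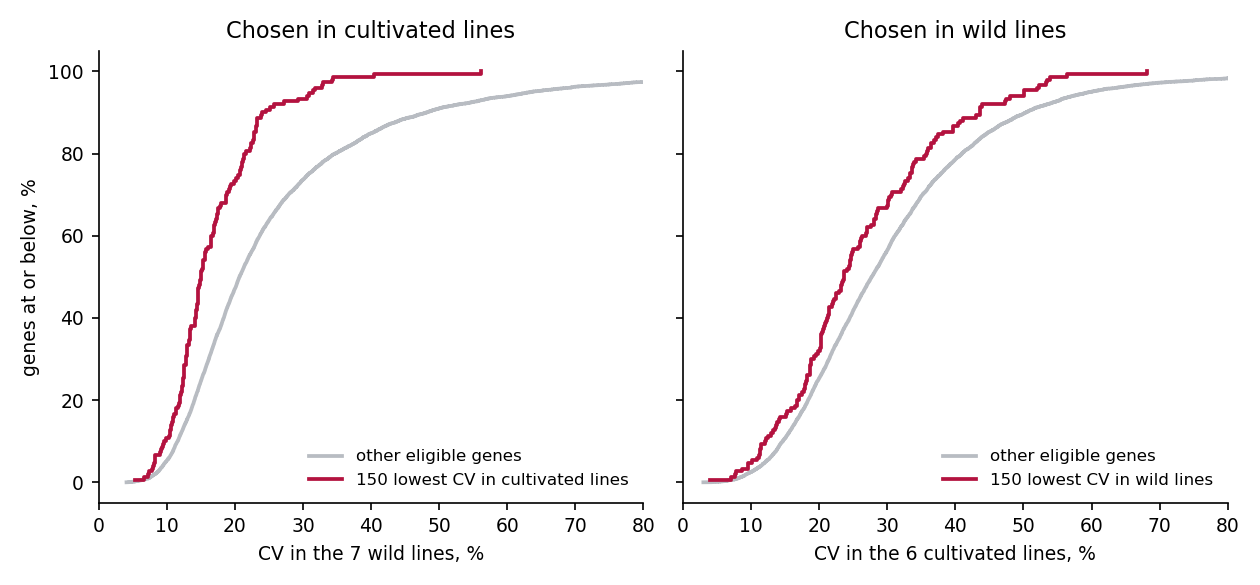
Cumulative share of genes (percent) by their CV in the lines that did not choose them, for 150 genes chosen in the cultivated lines and read in 7 wild lines (left), and for 150 genes chosen in the wild lines and read in 6 cultivated lines (right); grey lines are the other eligible genes, and the x axis ends at 80%. The chosen genes lie to the left of the others in both panels, with median CVs of 15.0% and 23.6%.

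Membership depended on single lines as well. Leaving out 1 line and applying the rule again kept 81 to 133 of the 150 genes, with the fewest without df36 (81) and without df43 (93). Whichever line was left out, 57 genes stayed on the list, and the 10 most even genes were all among them. With the spread measured as the median absolute deviation over the median, which gives little weight to single lines, 34 of the 150 were chosen again. Glyma.10G292700 was the 1 gene chosen under every one of the 24 alternatives except the minimum of 50 mean CPM, which its mean of 30.5 CPM does not reach. Glyma.19G122600 was chosen as often, under 23 of the 24. All 24 alternatives, the lists without 1 line included, reuse values that chose the genes. These counts therefore describe the genes and do not test them.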

How the data were processed

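RNA from whole seeds of 6 cultivated and 7 wild soybean lines was measured. The authors deposited raw read counts for each gene, with 1 column per line, whole numbers whose sums differ between lines. Per the submitters' processing notes, Trim Galore 0.3.3, TopHat2, SAMtools and edgeR were used, without roles or order, and the sources used here name no counter, build or annotation. The library kit was a stranded one for mRNA, per the labels' protocols, but whether counting used the strand is not given. Columns were matched to lines by title, and groups were taken from the strain label. Of 59365 rows in the RefSeq table (Glycine soja ASM419377v2) 0 matched an identifier, so planned lists by product were not filled, and length and sequence were not used.

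CPM is the count divided by the column sum, times 1 M, unscaled unless a factor is named. Counting noise is the Poisson variance at the depth of each line. No library was a duplicate (lowest chi-square per degree of freedom between 2 libraries 21.8). Groups were compared with edgeR 4.0.16 in R 4.3.3 (TMM, expression filter, quasi-likelihood test, Benjamini-Hochberg adjustment over 31420 genes). The fit was tried on simulated data. The fold changes put into these were all larger than those fitted for the members, so differences as small as those were not covered. Standard errors are the log2 fold change over the root of F. DESeq2 1.42.0 and limma 3.58.1 (voom) were alternatives, and DESeq2 ran on all features. Other steps used Python 3.11.15 with pandas 2.3.3 and matplotlib 3.10.9. At these depths 3 counts stood for 0.115 to 0.237 CPM. The labels name no batch.

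The list, its rule and the tests were chosen with earlier results of these data known. Named are the 10 members with the lowest CV, the 5 with the highest mean, the most even of each level band, the 3 genes on either side of the edge and the 2 with the largest fitted fold change in each direction. Adjacent or closest pairs, Glyma.10G255500 and Glyma.08G343200 were named after their values were seen.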

Additional observations from a re-analysis of the deposited data

Results flagged for a closer look

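In 5 of 54 groups of lines looked at (9.26%), 1 line was farther from the rest than Dixon's 95% limit allows. Over all 150 genes in both groups it was 17 of 300 (5.67%). Neither share can be read against a chance rate. The genes were chosen or named by these values, and all share the same libraries. Among the members named above, line df36 was low among cultivated lines in 2. It held 16.9 CPM of Glyma.11G082200 (others 23.1 to 24.4 CPM) and 32.6 CPM of Glyma.15G148800 (others 42.0 to 45.3 CPM). Members that were not named also count in the 17 and are not all listed here. Among them, df36 was low in Glyma.20G111200, at 55.6 CPM (other cultivated lines 73.6 to 83.8 CPM). It was high in Glyma.05G144700, at 36.2 CPM (other cultivated lines 29.0 to 31.5 CPM). In Glyma.09G024100 df43 was high instead, at 28.9 CPM (other cultivated lines 19.9 to 22.6 CPM). Glyma.02G044700, just outside the list, was high in df17, at 39.4 CPM (other cultivated lines 27.5 to 31.0 CPM). Glyma.19G197500, also just outside, was low in ys34, at 22.5 CPM (other wild lines 30.0 to 33.1 CPM). The total of ys16 was 23.6 M counts, and those of the other wild lines were 13.9 M to 18.1 M.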

How the results depend on the processing

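No paired analysis was possible because line names are not replicate numbers, and 17 is the only number that a cultivated and a wild line share. Of the 150 genes, 85 were chosen again with TMM, 81 with RLE and 81 with upper-quartile factors, 84 with log2 ratios to the geometric mean of the 8636 genes, 34 with MAD over median, 44 with a minimum of 50 mean CPM (at most 44 could be), 59 in cultivated and 20 in wild lines only, and 81 to 133 when 1 line was left out; for the rest, the cause was not tested. SD of log2(CPM + 1) kept 135, a minimum of 10 mean CPM 105. Calls between groups over all genes numbered 14 and became 23 with upper-quartile factors, 25 with no filter, 1255 with DESeq2, 9 with limma voom and 9 to 32 on leaving out 1 line (32 without df12, 9 without ys1 or ys16). Members called were 0 in every fit but DESeq2, with 1 (Glyma.01G176800). Members without overlap numbered 1, and 2 with TMM, 3 with RLE and 2 with upper-quartile factors, with no share of all genes given for the factors. The set ratio of highest to lowest line, 1.22, was 1.15 with TMM and 1.14 with upper-quartile factors. The median log2 fold change of the members stayed between 0.012 and 0.083 over all fits. At a level of 20 CPM counting alone gives a CV of 5.42%, which limits how even a gene can appear.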
